A study of Mus musculus with 12 samples.

Results

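Astrocyte nuclei that carried Gfap transcripts were examined in primary motor cortex (its caudal forelimb area) of 6 mice. Gfap encodes glial fibrillary acidic protein, an intermediate filament of astrocytes. The nuclei were chosen by measured UMIs (unique molecular identifiers, each standing for 1 captured transcript). A nucleus needed at least 5 UMIs in all of Slc1a3, Gli3, Aqp4, Gja1 and Slc4a4, at least 2 UMIs of Gfap, at most 2 of Slc17a7, Gad1 and Gad2 together, and at most 1 of Mog, Mag, Pdgfra, Csf1r and Flt1 together. With 500 genes as the lower limit and mitochondrial UMIs kept under 5%, 51683 of 51926 barcodes remained, 6370 met the astrocyte limits, and 71 of those had 2 or more Gfap UMIs. The comparison within each mouse was with 6083 nuclei that met the same limits and had no Gfap UMI, and 216 nuclei with 1 Gfap UMI lay between.

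The trained mice (2, 4 and 6) and the control mice (1, 3 and 5) were all 13 weeks old, and all received 1 mL of water a day for 10 days. On days 11 to 13 the trained mice, with the head fixed, pressed a lever with the left paw for part of that water, in sessions of 100 trials, and controls went on receiving it in the home cage. Practice, head fixation and the way water was given cannot be told apart in this design. Tissue came from the right hemisphere, and each mouse is 1 replicate (n = 3 against 3).

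In the cortex, most astrocytes are protoplasmic cells of the grey matter, which in mice show little Gfap. Astrocytes under the pia (the glia limitans), in layer 1 and in white matter show more, and Gfap also rises in astrocytes that react to injury. Fewer such nuclei and less Gfap RNA per nucleus cannot be told apart once counts are summed.

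The rule fixes Gfap, so its level is a description. Members held 35, 21 and 15 Gfap UMIs in trained mice 2, 4 and 6, and 43, 66 and 27 in control mice 1, 3 and 5. Of the 71, 45 had exactly 2 Gfap UMIs, 12 had 3, and 14 had 4 or more, with a highest value of 14. At the edges of the limits, 1 nucleus had an astrocyte sum of 5 and 3 nuclei lay just outside with a sum of 4. Slc1a3, the glutamate transporter GLAST, averaged 1808 ± 734 CPM (UMIs of the gene scaled to a common total per sum) in members and 2112 ± 316 in Gfap-zero nuclei (SD, n = 6 mice). Aqp4, the water channel of astrocyte endfeet, averaged 476 ± 289 CPM in members and 102 ± 8.86 in Gfap-zero nuclei. Both genes belong to the limits, so they were not tested and cannot check the label. The label was checked on 15 astrocyte identity genes outside the limits, all detected in members, whose summed level was 8362 to 18092 CPM in members and 9747 to 13126 in Gfap-zero nuclei.

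Gfap UMIs in cells that should lack them give the level of free RNA. Of 10481 Slc17a7-positive neurons, 0.258% had a Gfap UMI and 0 had 2 or more, at a median depth of 10810 UMIs against 3147 in members. Members were about as deep as Gfap-zero nuclei, whose median was 2978 UMIs. Scrublet marked 2 members as doublets. Of the 71 member barcodes, 2 had a sequence that also occurred in another mouse, and no 2 members shared one. Member sums held between 22124 and 68896 UMIs per mouse, the lowest in trained mouse 6, which gave 5 nuclei.

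The promoters of Gfap and of Myoc, the gene with the largest increase among those tested by both fits described next, are shown because Myoc was highest in the nuclei chosen by Gfap. They are RefSeq sequences of build GRCm38.p6, from 250 bases before to 50 after the start, read on the strand of the gene, with capitals marking motif matches.
Gfap (chr11:102897151-102897450, minus strand): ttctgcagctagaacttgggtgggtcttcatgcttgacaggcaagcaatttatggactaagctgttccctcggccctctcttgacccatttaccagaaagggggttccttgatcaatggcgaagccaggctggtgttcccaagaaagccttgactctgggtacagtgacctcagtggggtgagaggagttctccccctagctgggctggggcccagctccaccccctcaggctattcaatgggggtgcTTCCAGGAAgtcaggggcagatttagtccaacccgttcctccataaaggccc
Myoc (chr1:162638900-162639199, plus strand): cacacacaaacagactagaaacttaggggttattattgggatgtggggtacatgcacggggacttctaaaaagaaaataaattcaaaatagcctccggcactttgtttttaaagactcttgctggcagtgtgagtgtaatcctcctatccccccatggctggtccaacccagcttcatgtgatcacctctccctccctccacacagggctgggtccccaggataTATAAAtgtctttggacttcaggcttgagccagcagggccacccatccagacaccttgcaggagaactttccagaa
Both strands were searched for TTCNNNGAA (STAT), the NFI palindrome by name, TGACTCA (AP-1) and TATAAA (the core promoter box). The Gfap window held TTCNNNGAA at bases 249 to 257, and 8.30% of 32851 promoters hold that motif. The Myoc window held TATAAA at bases 225 to 230, and 13.6% of promoters hold it. TGACTCA and the NFI palindrome, which 1709 and 12 promoters hold, were not in these windows.

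Members differed from Gfap-zero nuclei of the same mice in genes known from pial and fibrous astrocytes, which were higher, and in several genes of protoplasmic astrocytes, which were lower. UMIs were summed per mouse and class and compared with edgeR's quasi-likelihood test with mouse as a block and Benjamini-Hochberg adjustment at 0.05. The planned fit with TMM scaling (a correction for library makeup) called 125 higher genes (1.04% of 12044 tested) and 510 lower genes (4.23%). Its median log2 change over all genes was -0.45, with scaling factors of 1.05 to 1.38 for the small member sums and 0.822 to 0.867 for the large Gfap-zero sums. A fit scaled by total UMIs over genes with a mean of at least 50 CPM, added after that shift was seen, had a median of 0.08 and called 174 higher (5.05% of 3445) and 100 lower genes (2.90%). That mean was taken over the sums of both classes, so genes low in Gfap-zero nuclei entered only where members were high. Of the 3445 genes tested in both fits, both called 73 higher (2.12%) and 100 lower (2.90%), and these are described here with levels and log2 changes scaled by total UMIs. The counts rested on single mice: leaving out control mouse 1, 3 or 5 gave 94, 111 or 103 genes called in both fits, and leaving out trained mouse 2 or 6 gave 105 or 272.

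**Figure D1:**
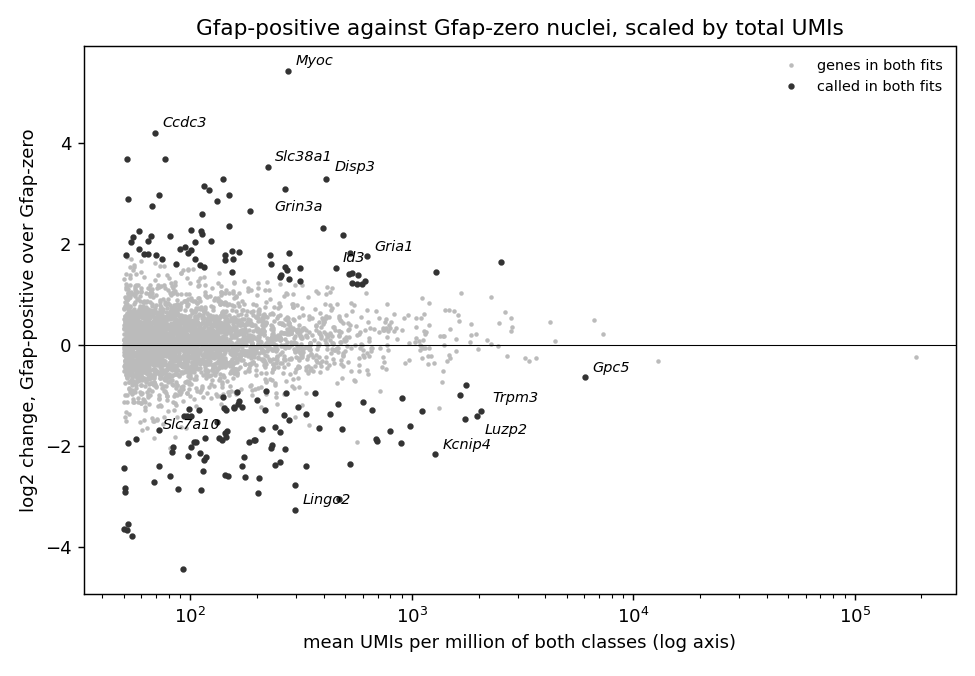
Log2 change of Gfap-positive over Gfap-zero nuclei (vertical axis, scaled by total UMIs) against the mean level of both classes (horizontal log axis, CPM), 1 point per gene tested in both fits, dark where both fits called it. Myoc lies highest at 5.43, and Slc6a20a, with 0 UMIs in members, is not drawn.

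Myoc encodes myocilin, a secreted glycoprotein. It had 212, 103 and 0 CPM in members of trained mice 2, 4 and 6 and 744, 1422 and 750 in members of control mice 1, 3 and 5, against 4.78, 35.2 and 22.9 in Gfap-zero nuclei of the trained mice and 5.89, 9.79 and 10.4 in those of the control mice. Members were higher in 5 of 6 mice, and trained mouse 6 had no Myoc UMI among its 5 members. Myoc lies at chr1:162639155-162649693 on the plus strand in the GENCODE annotation of GRCm38. The log2 change was 5.43 ± 0.65 (SE, adjusted p = 5.38e-05), and 4.94 with TMM scaling. A Myoc UMI was found in 42.3% of members, in 1.97% of Gfap-zero nuclei and in 0.143% of Slc17a7-positive neurons.

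Slc38a1, a sodium-coupled glutamine transporter, had 404, 275 and 136 CPM in members of trained mice 2, 4 and 6 and 764, 566 and 314 in members of control mice 1, 3 and 5. Gfap-zero nuclei had 30.1 to 54.0 in all 6 mice, so the classes did not overlap. The log2 change was 3.53 ± 0.32 (adjusted p = 4.32e-06). Slc38a1 is also a neuronal gene, with a UMI in 44.4% of Slc17a7-positive neurons. Id3 and Id1, inhibitors of basic helix-loop-helix factors that BMP signalling induces, were higher in 6 of 6 mice. Id3 averaged 670 ± 173 CPM in members and 235 ± 64.3 in Gfap-zero nuclei (SD, n = 6), a log2 change of 1.53 ± 0.23 (adjusted p = 0.000317), and Id1 averaged 146 ± 61.9 in members and 42.3 ± 10.5 in Gfap-zero nuclei, a log2 change of 1.95 ± 0.35 (adjusted p = 0.00177).

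Of 16 genes listed as known for pial, layer 1 and white matter astrocytes, 15 were tested with TMM scaling, where 10 were higher and 0 lower. In both fits 4 of 6 tested were higher (Myoc, Slc38a1, Id3 and Id1) and 0 lower, with a median log2 change of 1.75 over the 6 beside 0.08 over all genes. Of the 6, only Id3, at 230 CPM, lay above 50 CPM in Gfap-zero nuclei. Myoc and Slc38a1, at 13.1 and 36.4 CPM there, met the 50 CPM mean only through members. So did Id1, Ddr1 and Igfbp5, with 914, 834 and 654 Gfap-zero UMIs beside 821 for Slc38a1. That median is therefore no independent evidence. With TMM scaling 13 of the 15 lay above 0, while Itih3 (-1.36) and Cryab (-0.66) lay below, uncalled. Most other called genes of the list were too low for the total-UMI fit. They include Vim, a second intermediate filament gene, with 20 UMIs in members and 220 in the far larger Gfap-zero class (log2 change 2.46 ± 0.49 with TMM scaling, adjusted p = 3.92e-05), and Tnc, the matrix protein tenascin-C, with 26 UMIs in members and 187 in Gfap-zero nuclei (3.04 ± 0.45, adjusted p = 4.00e-09). Of 37 genes listed for reactive astrocytes, 15 were tested with TMM scaling, where 4 were higher (Vim, Cd44, Ggta1 and C4b) and 2 lower (Cp and Fkbp5). Of those 4, Vim, Cd44 and C4b are also on the pial list, and Cd44 rested on 7 member UMIs and was higher in 3 of 6 mice (adjusted p = 0.0499). Cp, ceruloplasmin, had 0 UMIs in members where the Gfap-zero level would give 10.6. With a floor of 3 UMIs over all members that would be at least 3.54-fold lower, if UMIs were independent. Only 6.35% of Gfap-zero nuclei had a Cp UMI, and the 5% with the most held 91.1% of its UMIs, so that bound is not secure.

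**Figure D2:**
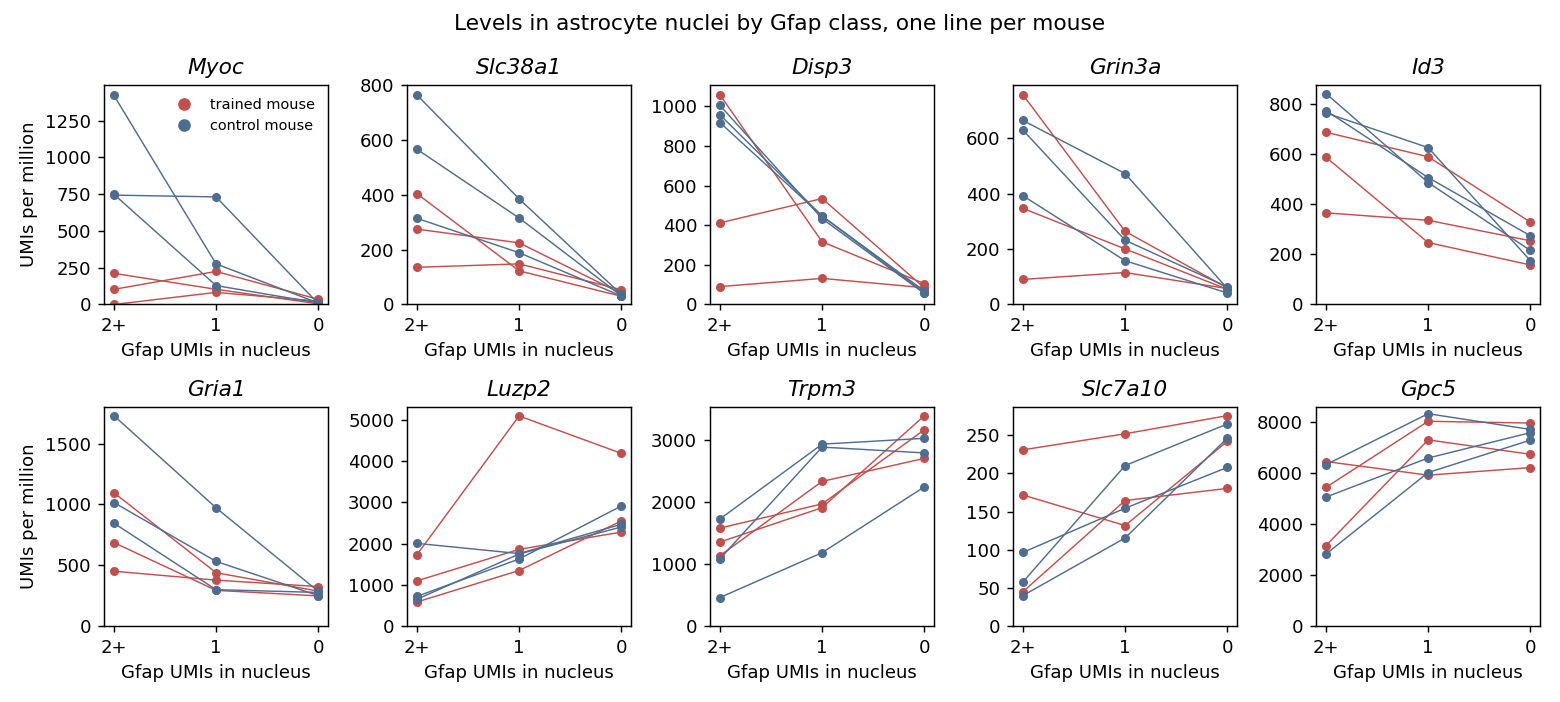
Level of 10 genes (CPM, linear axes from 0) in nuclei with 2 or more, 1 and 0 Gfap UMIs, 1 line per mouse, trained and control mice in different colours. Slc38a1 is higher in the 2-or-more class than in the 0 class in all 6 mice, and Luzp2, Trpm3 and Slc7a10 are lower in all 6.

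Other genes called in both fits, picked by smallest p among those higher in all 6 mice, included membrane and secreted proteins. Disp3, a dispatched-family membrane protein, had 1059, 412 and 90.4 CPM in members of trained mice 2, 4 and 6 and 1005, 958 and 919 in those of control mice 1, 3 and 5. In Gfap-zero nuclei Disp3 lay between 55.9 and 106, a range that held the member value of trained mouse 6 (84.8 in its own Gfap-zero nuclei, log2 change 3.29 ± 0.34, adjusted p = 1.65e-05). Grin3a, an NMDA receptor subunit, averaged 479 ± 249 in members and 55.8 ± 7.55 in Gfap-zero nuclei (3.09 ± 0.28, adjusted p = 4.32e-06). Gria1, an AMPA receptor subunit, averaged 971 ± 438 in members and 280.0 ± 28.2 in Gfap-zero nuclei (1.76 ± 0.23, adjusted p = 0.000103). Ccdc3, Bmper (a BMP-binding secreted protein), Adamts9 (a matrix protease), Unc5c (a netrin receptor), Padi2, Arhgef4, Emb and Greb1 had log2 changes between 1.83 and 4.21.

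Of 36 signalling genes, 24 were tested in both fits, where 3 were higher (Id1, Id3 and Smad6, an inhibitor of BMP signalling) and 0 lower. Of 13 mitochondrially encoded genes, 4 of 7 were higher in both fits (mt-Cytb, mt-Nd4, mt-Atp6 and mt-Co1). The summed mitochondrial level in members was 2444, 412 and 542 CPM in trained mice 2, 4 and 6 and 2151, 2380 and 2563 in control mice 1, 3 and 5, against 497 to 1055 in Gfap-zero nuclei. It lay above the Gfap-zero level of the same mouse in 4 of 6 mice, and its part in the other differences was not tested.

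Among lower genes, Trpm3, a cation channel, had 1136, 1581 and 1356 CPM in members of trained mice 2, 4 and 6 and 462, 1727 and 1088 in those of control mice 1, 3 and 5. Gfap-zero nuclei had 2243 to 3389, so the classes did not overlap (log2 change -1.31 ± 0.19, adjusted p = 0.000209). Luzp2 averaged 1134 ± 603 in members and 2800 ± 713 in Gfap-zero nuclei (-1.40 ± 0.22, adjusted p = 0.000421), and a Luzp2 UMI was found in 52.1% of members and 86.0% of Gfap-zero nuclei. Slc7a10, a transporter of D-serine and small neutral amino acids in astrocytes, averaged 107 ± 77.9 in members and 236 ± 35.8 in Gfap-zero nuclei (-1.22 ± 0.33, adjusted p = 0.0264), with a UMI in 22.5% of members and 52.0% of Gfap-zero nuclei. Of 18 genes listed for protoplasmic astrocytes, 13 were tested in both fits, where 4 were lower (Trpm3, Gpc5, Grm5 and Slc7a10) and 0 higher, with a median of -0.47 over the 13. Of 23 receptor genes, 15 were tested in both fits, where Gria2, Grm5 and Gabbr2 were lower and Gria1 higher. For Grm5, which is on both lists, 83.8% of the Gfap-zero UMIs came from the 5% of nuclei with the most. A Grm5 UMI was found in 15.5% of members and 19.8% of Gfap-zero nuclei. Of 15 genes for uptake and ion transport, 0 of 11 were called in both fits.

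The other lists held few calls. Of 15 genes of astrocyte identity outside the limits, 14 were tested in both fits, and Slc7a10 alone was called, lower. Of 22 matrix genes, 15 were tested, where Ncan, a chondroitin sulphate proteoglycan, and Adamts9 were higher and Gpc5, a glypican, was lower. Ncan averaged 224 ± 100.4 CPM in members and 83.7 ± 21.4 in Gfap-zero nuclei (log2 change 1.45 ± 0.27, adjusted p = 0.00238), and Gpc5 4884 ± 1556 CPM in members and 7257 ± 659 in Gfap-zero nuclei (-0.63 ± 0.17, adjusted p = 0.0283), lower in 5 of 6 mice. Of 14 endfoot genes, 1 of 11 tested was higher, Sntb1, a syntrophin, in 4 of 6 mice (1.79 ± 0.48, adjusted p = 0.0266). Of 18 glucocorticoid-responsive genes, 1 of 10 tested was higher, Nfkbia, an inhibitor of NF-kappaB, with 126 ± 115 CPM in members and 46.0 ± 8.54 in Gfap-zero nuclei (adjusted p = 0.0220, higher in 4 of 6 mice). Both fits called 0 of 14 tested lipid genes, 0 of 3 filament genes and 0 of 3 immediate early genes. In the receptor list, Gria2, an AMPA receptor subunit, averaged 1159 ± 540 CPM in members and 2136 ± 249 in Gfap-zero nuclei (-0.99 ± 0.22, adjusted p = 0.00752), opposite to Gria1.

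**Figure D3:**
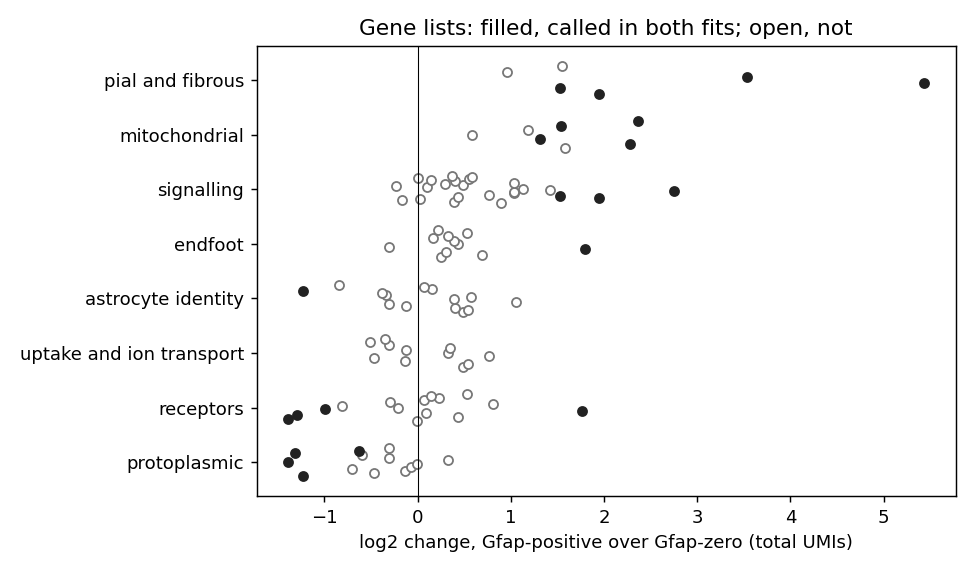
Log2 change of Gfap-positive over Gfap-zero nuclei (scaled by total UMIs) for genes of 8 lists, 1 point per tested gene, filled where both fits called it. All 6 tested pial and fibrous genes lie above 0, but genes low in Gfap-zero nuclei met the 50 CPM mean only where members were high. The 4 called protoplasmic genes lie below 0.

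Many lower genes had most of their Gfap-zero UMIs in few nuclei. Lingo2, Lrrtm4, Kcnip4 and Meg3 had log2 changes of -3.25, -3.05, -2.16 and -1.93. Of their UMIs in Gfap-zero nuclei, 94.9%, 93.9%, 89.9% and 84.7% came from the 5% of nuclei with the most, against 20.2% for Luzp2 and 22.4% for Slc7a10. A Kcnip4 UMI was found in 47.9% of members and 39.7% of Gfap-zero nuclei, and a Meg3 UMI in 43.7% of members and 37.8% of Gfap-zero nuclei. Such concentration was common: over 93 lower genes looked at, the median share from those 5% of nuclei was 85.5%, against 53.0% over 71 higher genes. Of the 93, 75 were found in a smaller share of members than of Gfap-zero nuclei and 18 in a larger one. Cntn5, for example, had a UMI in 2.82% of members and 11.9% of Gfap-zero nuclei, and Fam19a1 in 9.86% of members and 21.9% of Gfap-zero nuclei. Of their Gfap-zero UMIs, 88.7% and 80.6% came from those 5% of nuclei. When each member was matched to 1 Gfap-zero nucleus of the same mouse and depth, Kcnip4 had a log2 change of 0.11 and Meg3 of -0.06 with total-UMI scaling, while Lrfn5 had -1.73 (adjusted p = 0.0810 by edgeR) and Cntn4 -1.38 (adjusted p = 0.185). Of the 100 lower genes, 80 could be tested with matching and 14 were called, against 54 of 71 higher genes. The matched fit used the same members in which the genes had been called, so calls kept there are no independent evidence.

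Markers of other cell types were compared next, and their part in the differences was not tested. Summed markers of glutamatergic neurons were 1405 to 2508 CPM in members and 1928 to 2363 in Gfap-zero nuclei. Most of that sum was Rorb, with 438 of 569 UMIs in members and 30207 of 47904 in Gfap-zero nuclei. A Rorb UMI was found in 97.2% of members and 88.1% of Gfap-zero nuclei, so that sum does not measure neuronal RNA alone. Summed markers of GABAergic neurons were 131 to 221 in members and 303 to 455 in Gfap-zero nuclei, which did not overlap. Erbb4 held 9 of those 45 UMIs in members and 4407 of 8059 in Gfap-zero nuclei. Of its Gfap-zero UMIs, 92.7% came from the 5% of nuclei with the most. Oligodendrocyte markers summed to 103 to 316 in members and 93.3 to 141 in Gfap-zero nuclei, higher in members of 6 of 6 mice. Members held 62 UMIs of these markers, and 0 of 6 tested were called with TMM scaling. Fibroblast markers summed to 0 to 563 in members and 246 to 665 in Gfap-zero nuclei. Of 8 ependymal markers, 7 had no UMI in members, as had 5 of 8 endothelial markers. Markers of olfactory ensheathing glia summed to 80.4 to 316 CPM in members and 64.2 to 87.1 in Gfap-zero nuclei, higher in members of 6 of 6 mice. Of these 8 markers, 5 had no UMI in members (Frzb, Prss56, Mybpc1, Sox10 and Fgl2), while Matn4 was higher in both fits and Fabp7, also on the pial list, was higher with TMM scaling (2.02 ± 0.55, adjusted p = 0.00804). Without nuclei holding any UMI of the other-type genes, 65 of 70 higher genes and 37 of 72 lower genes tested were still called with total-UMI scaling. These nuclei are part of those in which the genes had been called, so those counts are no independent evidence.

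The nuclei with 1 Gfap UMI were set against both classes. They differed from Gfap-zero nuclei in 150 genes (91 higher and 59 lower) with total-UMI scaling. Members against nuclei with 1 Gfap UMI gave 0 calls of 3483 with that scaling (208 at an unadjusted p under 0.05) and 0 of 1662 with TMM scaling (126), both by edgeR. Myoc averaged 538 ± 539 CPM in members, 258 ± 244 in nuclei with 1 Gfap UMI and 14.8 ± 11.9 in Gfap-zero nuclei. Members with 4 or more Gfap UMIs against those with 2 or 3 gave 0 calls of 474 by edgeR (37 at an unadjusted p under 0.05) and 0 by DESeq2. The class with 4 or more was 1 nucleus in each of trained mice 4 and 6 and control mouse 5. The 0 calls are therefore no measure of likeness among members.

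Members also differed among themselves. This division was chosen after the values were seen and is given without a test. A Myoc UMI was present in 30 of 71 members. Slc38a1 was detected in 26 of the 30 members with Myoc and in 8 of the 41 without, and Disp3 in 30 of 30 with Myoc and 18 of 41 without. Slc7a10 ran the other way, in 1 of 30 members with Myoc and 15 of 41 without, as did Luzp2, in 7 of 30 with Myoc and 30 of 41 without. Id3 was in 21 of 30 with Myoc and 29 of 41 without. Of Myoc, Slc38a1, Disp3, Grin3a, Ccdc3 and Id3, at least 3 were detected in 41 of 71 members (57.7%) and in 287 of 6083 Gfap-zero nuclei (4.72%), and 4 members had none. These genes had been called higher in the same members, so this contrast, pooled over mice, is a description and no independent evidence.

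Training and the number of members were compared next. Members made up 1.40%, 0.964% and 0.664% of gated astrocytes in trained mice 2, 4 and 6 and 1.13%, 1.29% and 1.04% in control mice 1, 3 and 5. The groups overlapped, with means of 1.01% ± 0.372 in trained and 1.15% ± 0.126 in control mice (SD, n = 3 each), and a two-sided exact permutation test gave p = 0.6, where the smallest possible is 0.1. Thinned to 2000 UMIs per nucleus, the shares were 0.437% ± 0.289 in trained and 0.607% ± 0.255 in control mice (exact permutation p = 0.5). Over all gated astrocytes Gfap averaged 16.9 ± 5.42 CPM in trained and 18.5 ± 5.07 in control mice (log2 change -0.12 ± 0.26, adjusted p = 0.966 by edgeR).

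**Figure D4:**
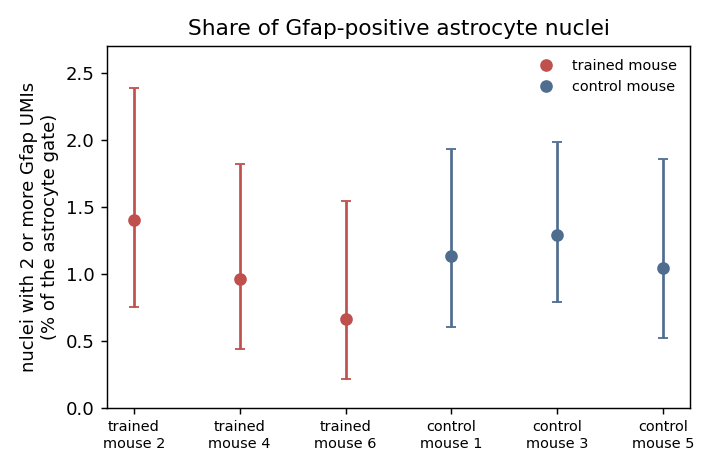
Percent of gated astrocyte nuclei with 2 or more Gfap UMIs in each mouse, with exact 95% binomial (Clopper-Pearson) intervals that cover counting error only. The trained mice span 0.664% to 1.40%, around the control mice at 1.04% to 1.29%.

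Within members, edgeR called 0 of 638 genes (0%) for training, with 44 at an unadjusted p under 0.05, and 2 were called by DESeq2. The mice of the groups did not overlap for 85 of the 638 genes (13.3%). Myoc averaged 104.9 ± 106 CPM in trained and 972 ± 390.1 in control mice (SD, n = 3 each; log2 change -2.92 ± 0.54, adjusted p = 0.0548). A Myoc UMI was found in 4 of 13, 2 of 9 and 0 of 5 members of trained mice 2, 4 and 6 and in 8 of 13, 13 of 20 and 3 of 11 of control mice 1, 3 and 5. Slc6a6, a taurine transporter, averaged 87.9 ± 37.5 in trained and 441 ± 68.2 in control mice (-2.16 ± 0.45, adjusted p = 0.0557). Nrp2, a semaphorin receptor, averaged 71.5 ± 68.9 in trained and 435 ± 109.9 in control mice (-2.41 ± 0.55, adjusted p = 0.0983).

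Pde10a, a cyclic nucleotide phosphodiesterase, had 1713, 241 and 1220 CPM in members of trained mice 2, 4 and 6 and 60.3, 189 and 121 in those of control mice 1, 3 and 5 (log2 change 3.12 ± 0.61, adjusted p = 0.0548). Its log2 change in Gfap-zero nuclei was 1.66 (adjusted p = 0.382 by edgeR), and it is on a list of genes that an earlier analysis of these nuclei called in astrocytes, so it is no independent evidence. With members widened to 1 or more Gfap UMIs, Pde10a (2.73, adjusted p = 0.000251), Myoc (-1.92, adjusted p = 0.00227), Slc6a6 (-1.87, adjusted p = 0.0064) and Nrp2 (-1.67, adjusted p = 0.0115) passed, among 59 calls of 2887. The wider set contains the same members and mice from which these genes were picked, so their passing is no independent evidence. In that wider set the summed GABAergic markers were 116, 152 and 1388 in trained mice 2, 4 and 6 and 208, 235 and 158 in control mice 1, 3 and 5, and their part in the result was not tested. In Gfap-zero nuclei 0 of 13305 genes (0%) passed by edgeR (935 at an unadjusted p under 0.05), and DESeq2 called 53. The change with training differed between members and Gfap-zero nuclei for 10 of 12044 genes (0.083%) with TMM scaling and for 0 with total-UMI scaling, Myoc among the 10 (-3.92 ± 0.61, adjusted p = 6.22e-07 by edgeR). Of 27 immediate early genes, 0 could be tested for training in members with TMM scaling, and 0 of 4 tested were called with total-UMI scaling.

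**Figure D5:**
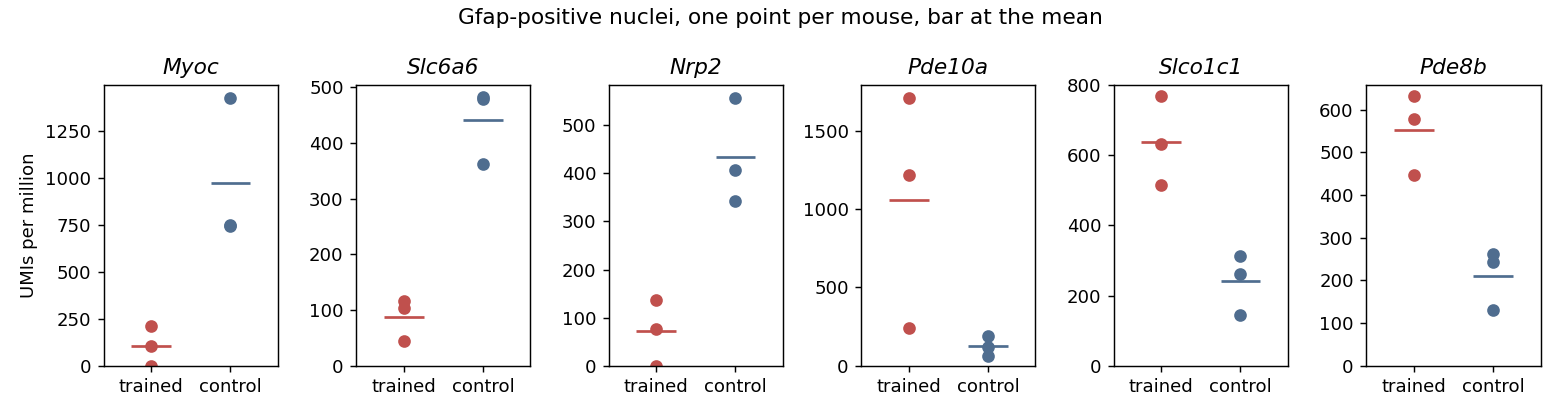
Level in members (CPM, linear axes from 0) of the 3 lower and 3 higher genes of smallest p between trained and control mice, 1 point per mouse with a bar at the mean. The groups do not overlap for these 6 genes, which were picked by p, none of which passed the adjusted threshold. They did not overlap for 85 of all 638 genes tested (13.3%).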

How the data were processed

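RNA of single nuclei was sequenced from the 3' end on the 10x Genomics droplet system, with a shallow and a deep run for each mouse. The authors deposited 1 matrix of UMI counts per gene and nucleus, made with Cell Ranger 4.0.0 against mm10, per the submitters' processing notes. How intronic reads and barcode filters were handled, and whether runs were joined, is not given in the sources used here. Barcode suffixes gave the mouse, and 0 barcodes lacked one. The members and gene lists were chosen with earlier results of these data known.

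UMIs were summed per mouse and class and fitted with edgeR 4.0.16 (R 4.3.3; filterByExpr, TMM, quasi-likelihood test). DESeq2 1.42.0 was the other tool. Doublets were marked by Scrublet (scanpy 1.11.5), expecting 6%. Matching used bins of 0.25 in log2 UMIs. On simulated sums, the TMM fit recovered 189 of 200 changed genes with 52 false calls, and the total-UMI fit 165 of 167 with 4 false calls, for members against Gfap-zero nuclei. For training in members the TMM fit recovered 73 of 79 with 6 false calls, and the total-UMI fit 100 of 167 with 3. The simulation used 4-fold changes, 1 fixed dispersion, no mouse effect and no clustering of UMIs in single nuclei. Its rates therefore do not describe the real sums. Genes named were the 15 of smallest p each way that moved alike in 6 mice, the 3 or 5 each way of the other fits, and the leading members of each list. One that the rule picks is not reported here. Motif and sequence windows came from RefSeq tables. Intervals cover counting error only.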

Additional observations from a re-analysis of the deposited data

Results flagged for a closer look

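Grin3a was set apart because 1 of the 6 mice lay far from the others. That mouse was trained mouse 6, which gave 5 members. Of its 22124 member UMIs, 11143 came from 1 nucleus, and Scrublet marked 1 of the 5 members as a doublet. The log2 difference of members from Gfap-zero nuclei (20 CPM added) was 0.51 for Grin3a there, against 2.29 to 3.28 in the other mice. Of 30 genes looked at in this way, chance sets apart about 1 in 20, but these genes share mice and nuclei and are not independent. Trained mouse 6 was also the lowest for Disp3 (0.08, others 2.05 to 3.76), Bmper (0.27, others 1.82 to 3.18) and Greb1 (0.24, others 1.29 to 2.44). The same mouse was lowest for Slc38a1, Gria1, Padi2, Unc5c and Arhgef4 as well. For some genes another mouse lay furthest out, such as trained mouse 2 for Adamts9 (1.03, others 1.73 to 3.30).

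The change with training differed between members and Gfap-zero nuclei for 10 genes in the planned edgeR fit (0.083% of 12044), and for 0 with total-UMI scaling or DESeq2. Ptgds had an interaction of -4.44 on the log2 scale and Myoc of -3.92. Slc38a2 had -3.99, with 40 of its 67 member UMIs in 1 nucleus. For mt-Co3 it was -2.20, with 18 of its 129 member UMIs in 1 nucleus. In the other genes but Myoc, over 50% of member UMIs came from 1 nucleus: Gm28928 (2.78) had 60 of 74 there, Nkain2 (2.80) had 23 of 42, Ptgds had 201 of 371, Tmem178 (4.23) had 29 of 33, Tshz2 (-11.12) had 23 of 26, Bnc2 (-11.08) had 14 of 14 and Mgp (-11.38) had 10 of 13. Bnc2, Tshz2 and Mgp had 0 UMIs in members of trained mice, so their fitted values are no measure of a fold. Ptgds was present in 27 members, with 115, 68.7 and 271 CPM in trained mice 2, 4 and 6 and 2936, 2990 and 121 in control mice 1, 3 and 5, so the groups overlapped. Myoc was present in 30 members, with 14 UMIs in those of trained mice and 166 in those of control mice. Summed fibroblast markers, Bnc2 among them, were 563 CPM in members of control mouse 1 and 0 to 145 in those of the other mice, and their part in these results was not tested.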

How the results depend on the processing

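Members against Gfap-zero nuclei gave 635 calls as planned. The count was 610 with no replicate block (mouse), 99 when matched on total UMIs, 274 with total-UMI scaling (chosen after seeing the data), 0 against nuclei with 1 Gfap UMI, and 401 to 738 when 1 mouse was left out. The genes called in both fits numbered 173, and 114 without nuclei holding other-type UMIs, 83 when matched, and 94 to 272 when 1 mouse was left out. Of the named genes, Cntnap2 (0.16) and Kcnip4 (0.060) reversed in the matched fit with TMM scaling. Members with 4 or more Gfap UMIs gave 0 calls, 5 with no filter on low counts, 1 without doublets, 4 when matched, 1 with total-UMI scaling and 0 to 4 when 1 mouse was left out. That matched fit tested 42 genes in control mice 1 and 3 and trained mouse 2, with 1 or 2 nuclei per class in each. The interaction gave 10 calls, 6 with no filter, 0 with DESeq2, 2 without doublets, 0 without other-type UMIs, 4 when matched, 0 with total-UMI scaling and 3 to 13 when 1 mouse was left out. Training in members gave 0 calls, 10 with no filter, 2 with DESeq2, 6 without doublets, 11 with median UMIs and 1 with mitochondrial percent as covariate, 59 with 1 or more Gfap UMIs, and 0 to 7 when 1 mouse was left out. Training in Gfap-zero nuclei gave 0 calls, 90 with no filter, 53 with DESeq2, 15 without other-type UMIs, 1 with median UMIs as covariate, and 0 to 4 when 1 mouse was left out. The share of members differed by -0.14 percentage points between trained and control mice, by 0.10 with 1 or more Gfap UMIs, and by -0.340 to 0.0299 when 1 mouse was left out. The log2 change of Gfap over all gated nuclei was -0.12, and -0.29 to 0.14 when 1 mouse was left out. The cause of these shifts was not tested. With 5 to 20 members per mouse, genes under about 50 CPM rest on a few UMIs.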
